A study of Mus musculus with 6 samples.

Results

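The 9 genes described here are identity genes of blood leukocytes, read by their DNA methylation in mouse lung endothelium: Ptprc, Spi1, Cd79a, Cd79b, Cd3e, Mrc1, Itgam, Csf1r and Cd68. They were chosen by name, and each was followed over all 1 kb tiles that overlap its RefSeq gene span plus 10 kb on each side, called its window. The windows held 479 of the 1954255 tiles measured, and the 9 genes stand among 20337 protein-coding genes with a window. Whole-genome bisulfite sequencing, which reads the share of methylated cytosines, was applied to endothelial cells sorted by flow cytometry from the lungs of Dnmt3a knockout (KO) and wild-type (WT) mice, 3 samples each. The alleles, the Cre driver if there was one, the age, sex and strain of the mice, and whether a group's samples are separate animals are not stated in the labels used. Every p-value is therefore relative to the variation among these 6 samples, part or all of which could be technical.

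Dnmt3a is a de novo DNA methyltransferase, an enzyme that adds methyl groups to cytosines, mostly where a guanine follows (CpG). Genes of another cell lineage are commonly methylated at their starts where they are silent, while genes in use tend to have unmethylated starts. Ptprc encodes CD45, the surface phosphatase shared by nucleated blood cells, and Spi1 encodes PU.1, an ETS factor that directs myeloid and B cell development. Cd79a and Cd79b encode the signalling subunits of the B cell receptor and Cd3e a signalling subunit of the T cell receptor. Mrc1 (the mannose receptor), Itgam (CD11b, an integrin subunit), Csf1r (the receptor of the macrophage growth factor CSF1) and Cd68 (a lysosomal glycoprotein) mark macrophages and other myeloid cells. Mrc1 is also known from lymphatic and liver sinusoidal endothelium. No expression was analysed here, so that these genes are silent in endothelium is background and not a measurement.

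The sequences just before 4 of the starts are shown as the part of the start regions nearest to the genes, a small share of the up to 3 tiles of 1 kb behind each start value: Cd79a and Mrc1, whose starts lost methylation, and Itgam and Cd3e, whose starts did not pass the test. Each is the 250 bases before a start listed in RefSeq (GRCm38.p6, the assembly that mm10 names), 5′ to 3′ on the strand of the gene, with each CpG in capitals. Start levels use the end of the gene span instead. For Cd3e this is 45009663, so part of its stretch lies inside the span.
Cd79a (chr7:24897247-24897496, plus strand): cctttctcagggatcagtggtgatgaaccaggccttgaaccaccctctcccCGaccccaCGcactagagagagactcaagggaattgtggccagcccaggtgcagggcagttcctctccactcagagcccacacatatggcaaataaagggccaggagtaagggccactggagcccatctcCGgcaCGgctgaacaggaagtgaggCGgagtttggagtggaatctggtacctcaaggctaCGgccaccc
Mrc1 (chr2:14229164-14229413, plus strand): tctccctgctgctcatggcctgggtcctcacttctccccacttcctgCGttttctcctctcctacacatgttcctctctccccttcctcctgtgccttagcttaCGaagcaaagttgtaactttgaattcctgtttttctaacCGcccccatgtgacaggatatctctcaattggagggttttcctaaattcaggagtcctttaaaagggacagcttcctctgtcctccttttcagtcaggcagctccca
Itgam (chr7:128062390-128062639, plus strand): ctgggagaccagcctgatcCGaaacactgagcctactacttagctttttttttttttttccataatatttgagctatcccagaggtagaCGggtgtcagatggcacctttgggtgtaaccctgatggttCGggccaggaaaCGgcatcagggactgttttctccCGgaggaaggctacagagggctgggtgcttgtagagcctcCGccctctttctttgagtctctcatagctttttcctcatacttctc
Cd3e (chr9:45009612-45009861, minus strand): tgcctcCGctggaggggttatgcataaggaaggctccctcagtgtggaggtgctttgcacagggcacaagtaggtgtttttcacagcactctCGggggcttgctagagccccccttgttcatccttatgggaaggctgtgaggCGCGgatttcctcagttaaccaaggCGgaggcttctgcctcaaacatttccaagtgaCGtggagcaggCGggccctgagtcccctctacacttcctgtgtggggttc
They hold 6, 3, 6 and 7 CpGs, beside a median of 6 over 32851 such stretches of the RefSeq promoter table. Cd68 has 4, and the 2 starts listed for Ptprc have 4 and 2. Both Ptprc stretches lie inside its gene span, which ends at 138175756, the position used for its start level. The letters GAGGAA, part of the purine-rich sequence that PU.1 binds, were searched on both strands. They occur 3 times for Mrc1, 2 times for Itgam and 1 time each for Cd79a, Cd3e and Cd68, and in 1 of the 2 stretches of Ptprc, while 23.3% of all stretches hold them. A match describes letters only and is no evidence of binding. Spi1, Cd79b and Csf1r had no entry in that table.

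A tile level is the mean over the sorted cells, so complete loss in some cells and partial loss in all cannot be told apart, and a share of other cell types in the sort was not tested. No coverage accompanies the deposited levels, and their depth is unknown. Averaged over all tiles, KO stood at 63.7% ± 0.140 and WT at 69.0% ± 0.451 (SD, n = 3 each), that is -5.36 points (exact permutation test over samples, two-sided, p = 0.10, which 3 against 3 cannot go below). This is the background for each value that follows. Of the 26 endothelial markers listed, 11 had a start with a known strand. Their WT levels ran from 5.68% for the tight junction gene Cldn5 to 26.1% for Cd34, with a median of 24.5%.

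In WT endothelium the leukocyte gene starts that could be read were methylated. A start is the mean of the tiles within 1 kb of it, and 6 of the 9 genes had one. Their WT means lay between 60.6% (Cd68) and 73.5% (Itgam), with a median of 69.8%, while the median over 16076 gene starts was 36.6%. All 6 were at 60% or more, as were 24.4% of all gene starts, and 0 of the 11 endothelial markers were. In KO the median of the 6 starts was 60.04%. For genes without a known start, the higher and lower coordinate ends of the span were read in WT. Spi1 was at 39.9 and 53.7%, Cd79b at 66.8 and 80.2% and Csf1r at 83.4 and 78.6%.

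**Figure D1:**
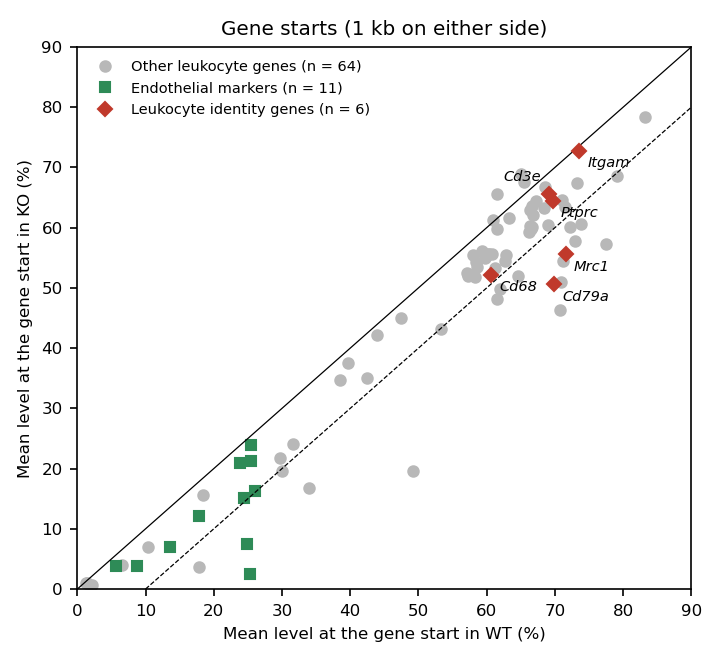
Mean methylation level at gene starts (1 kb on either side) in WT (x axis, %) and KO (y axis, %), one point per gene. The solid line is equality and the dashed line a loss of 10 points; the 6 leukocyte identity genes sit at 60.6 to 73.5% in WT, with Cd79a and Mrc1 below the dashed line and Itgam on the solid one, and the 11 endothelial markers lie at 26.1% or less.

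Over windows, all 9 genes had a lower mean in KO, and the size ranged from -2.21 to -14.3 points. With limma, 5 of 9 windows fell (adjusted p under 0.05 and at least 5 points): those of Cd79b, Cd79a, Cd68, Spi1 and Mrc1. This share is near the background, since 56.6% of the 20337 windows fell. The median difference of the 9 was -5.82 points and that of all windows -5.59. The other 4 windows also had an adjusted p under 0.05 and were under the size limit. In 8 of 9 windows the highest KO sample was below the lowest WT sample, as in 84.6% of all windows. None of the 9 was called higher (0 at an unadjusted p under 0.05), as were 0.0246% of windows.

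**Figure D2:**
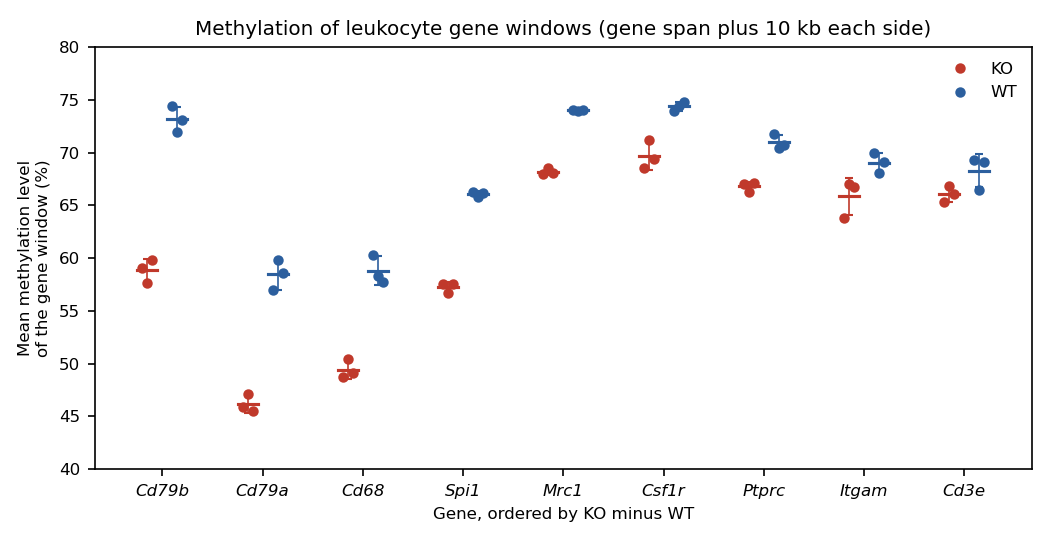
Mean methylation level (%, y axis from 40) of each gene window in the 3 KO and 3 WT samples, with the mean and SD of each group, genes ordered by KO minus WT. The groups are far apart for Cd79b (58.8 against 73.1%) and Cd79a (46.2 against 58.5%) and overlap for Cd3e.

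Over whole windows the B cell receptor genes lost the most. The Cd79b window (gene on chromosome 11, 106311341 to 106314562) was at 59.02, 57.6 and 59.8% in KO and 74.4, 71.9 and 73.1% in WT. The difference was -14.3 ± 0.864 points (SE, limma adjusted p = 4.92e-07), and 4.39% of all gene windows lost more. The Cd79a window (gene on chromosome 7, 24897497 to 24901858) was at 45.9, 47.1 and 45.5% in KO and 56.96, 59.8 and 58.6% in WT. The difference was -12.3 ± 0.973 points (limma adjusted p = 2.003e-06). In both genes each KO sample was more than 9 points below every WT sample. The 2 differences were 2.01 points apart with a combined SE of 1.30, so their order is not resolved.

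Next came Cd68 and Spi1, whose differences could not be ordered either (0.568 points apart, combined SE 1.18). The Cd68 window (gene on chromosome 11, 69664213 to 69666170) was at 48.7, 50.4 and 49.1% in KO and 60.3, 58.3 and 57.7% in WT (-9.37 ± 0.959 points). The Spi1 window (gene on chromosome 2, 91082374 to 91115759) was at 57.5, 56.7 and 57.5% in KO and 66.3, 65.7 and 66.1% in WT (-8.80 ± 0.693 points). KO samples were below WT samples throughout for both. Cd68 is a gene of 1.96 kb among close neighbours, and 20 of the 23 tiles of its window touch another gene. Over the 3 tiles that do not, the difference was -19.98 points. With tiles of other genes left out of every window, Cd68 had the largest loss, ahead of Cd79b (-17.9 points) and Cd79a (-15.3).

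The Mrc1 window (gene on chromosome 2, 14229414 to 14332023) was at 67.9, 68.6 and 68.1% in KO and 74.04, 73.98 and 73.99% in WT, with a difference of -5.82 ± 0.544 points. Its loss was smaller than that of Spi1 by 2.98 points, beyond 2 combined SE (0.881). From Mrc1 down to Cd3e no step between neighbours in the order exceeded 2 combined SE.

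Smaller differences were found at Csf1r, Ptprc, Itgam and Cd3e. The Csf1r window (chromosome 18, 61105572 to 61131139) was at 68.6, 71.2 and 69.4% in KO and 73.97, 74.4 and 74.8% in WT (-4.66 ± 0.734 points). The Ptprc window (chromosome 1, 138062859 to 138175756) was at 67.01, 66.3 and 67.1% in KO and 71.8, 70.5 and 70.7% in WT (-4.18 ± 0.638). The Itgam window (chromosome 7, 128062640 to 128118491) was at 63.8, 66.99 and 66.7% in KO and 69.9, 68.1 and 69.1% in WT (-3.20 ± 0.945). In these 3 the groups did not overlap, though the highest Itgam sample of KO came within about 1 point of the lowest of WT. The Cd3e window (chromosome 9, 44998735 to 45009663) was at 65.3, 66.8 and 66.1% in KO and 69.3, 66.4 and 69.1% in WT (-2.21 ± 0.886, limma adjusted p = 0.0394). Here WT replicate 2 lay among the KO samples, and 84.8% of all gene windows lost more. For Cd3e the adjusted p was above 0.05 without KO replicate 1 (0.120) or 3 (0.0757) or WT replicate 1 (0.133) or 3 (0.126), and without tiles of other genes in any window (0.0548).

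Centring each sample on its median tile adds the same 4.89 points to each difference, so it keeps the order of the genes and only restates their values against the fall of the whole genome. The windows of Cd79b and Cd79a were then called lower, as were 17.1% of all windows, while those of Csf1r, Ptprc, Itgam and Cd3e turned to 0.232, 0.709, 1.69 and 2.68 points, all under the 5-point limit. Those of Spi1, Cd68 and Mrc1 were at -3.91, -4.48 and -0.928 points, under it too. With scaling to one mean level Cd79b, Cd79a and Cd68 were called lower, as were 17.0% of all windows. It left Spi1 and Mrc1 at -3.82 and -0.0734 points and gave the same 4 genes 1.16, 1.39, 2.25 and 3.23 points. The mean over the 9 windows was 60.9% ± 0.456 in KO and 68.1% ± 0.433 in WT, and its difference of -7.20 points became -2.31 on centring and -1.99 on scaling. Without KO replicate 2 the Csf1r window reached a call at -5.39 points, as it did at -6.16 when tiles of other genes were left out.

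At the gene starts, Cd79a and Mrc1 fell and the other 4 were not called. That is 2 of 6, beside 17.4% of 16076 gene starts and 20.1% of the 3919 starts that were at 60% or more in WT. None of the 6 was called higher (0 at an unadjusted p under 0.05, and 0.0373% of all starts were called). In 4 of 6 the groups did not overlap, with KO lower, as in 55.3% of all starts. The Cd79a start was at 50.1, 53.1 and 48.6% in KO and 73.4, 64.2 and 72.2% in WT. This is -19.3 ± 2.94 points (limma adjusted p = 0.000572). The Mrc1 start was at 57.9, 52.1 and 56.7% in KO and 75.6, 66.5 and 72.6% in WT (-16.01 ± 2.95, adjusted p = 0.0018). For both genes the groups were separated by more than 8 points. The tile that holds the start itself was called for Mrc1 (52.1 against 68.3%) and not for Cd79a (44.1 against 54.5%, adjusted p = 0.110). The Mrc1 call on that tile was lost without KO replicate 2 (-13.8 points), WT replicate 1 (-14.5) or WT replicate 3 (-14.4), on centring and on scaling. Over 1 kb on either side, the Cd79a and Mrc1 starts stayed called on centring (-14.4 and -11.1 points) and on scaling (-14.4 and -10.9). So did 7.08 and 10.03% of all starts.

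The Cd68 start was at 53.3, 52.6 and 50.7% in KO and 60.7, 63.5 and 57.7% in WT (-8.42 ± 2.42 points, adjusted p = 0.0177), short of the 10-point limit. The groups did not overlap, and within 500 bp the difference was -15.4 points and was called. The tile at its start also touches Eif4a1, a translation initiation factor gene. The Ptprc start was at 66.9, 67.6 and 59.04% in KO and 72.9, 68.4 and 67.8% in WT (-5.18 ± 2.93, adjusted p = 0.174). The Cd3e start was at 71.2, 63.8 and 61.9% in KO and 68.2, 69.5 and 69.9% in WT (-3.58 ± 2.79, adjusted p = 0.316), with KO replicate 1 above all WT samples. The Itgam start was at 68.2, 76.2 and 74.1% in KO and 74.1, 70.02 and 76.4% in WT (-0.702 ± 2.82, adjusted p = 0.855), with the groups mixed. Single samples moved these values. The Ptprc start was at -2.45 points without KO replicate 3, and the Cd3e start at -6.34 without KO replicate 1 and -1.73 without KO replicate 3. The direction at Itgam and Cd3e turned on centring (4.19 and 1.32 points), and that at Ptprc on scaling (0.263). With SEs close to 3 points, losses well above that size at these 3 starts could go undetected, and none under 10 points could be called.

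For Spi1, Cd79b and Csf1r both ends of the gene span were read, and neither is called a start here. Of the 18 ends of the 9 genes, which include the 6 starts, 7 fell, beside 19.6% of all ends, and 0 were called higher (0.0473% of all ends, and 0 of the 18 at an unadjusted p under 0.05). Both ends of Cd79b fell. The end with the higher coordinate was at 40.3, 47.2 and 43.1% in KO and 65.0, 67.01 and 68.4% in WT (-23.3 ± 2.70 points, limma adjusted p = 4.42e-05), and the other end was at a mean of 67.2% in KO and 80.2% in WT (-12.97 ± 2.43). The call at this other end was lost on centring (-8.08 points) and on scaling (-7.01). At Spi1 the end with the higher coordinate was at 26.6, 22.3 and 25.6% in KO and 39.2, 39.6 and 40.9% in WT (-15.1 ± 1.83, adjusted p = 6.14e-05). Its other end was at 45.7 and 53.7% (-7.98 ± 2.59, adjusted p = 0.0272), under the size limit, and was called at -10.6 points over 2000 bp. Neither end of Csf1r passed the test, at -5.49 ± 2.62 (lower coordinate) and -1.85 ± 2.097 points, and both turned positive on scaling (0.631 and 4.83). The lower-coordinate end was at -2.94 points without WT replicate 2, and the other at -0.933 without KO replicate 2, -2.90 without KO replicate 1, -0.530 without WT replicate 1 and -3.44 without WT replicate 2. Of the ends opposite a known start, those of Cd68 (-17.3 points) and Cd79a (-15.5) fell.

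A gene body here is the mean of tiles inside the gene and at least 1 kb from its ends, and 6 genes were long enough to have one. Those of Spi1 and Mrc1 fell, 2 of 6, while 53.3% of 15360 gene bodies did. None of the 6 was called higher (0 at an unadjusted p under 0.05, and 0.013% of all bodies were called), and in 5 of 6 every KO sample was below every WT sample, as in 81.1% of all bodies. The Spi1 body was at 63.3, 61.8 and 60.6% in KO and 69.9, 69.2 and 69.1% in WT (-7.52 ± 0.871 points, limma adjusted p = 0.000165), and the Mrc1 body at 68.1, 69.5 and 68.1% in KO and 74.1, 74.5 and 73.8% in WT (-5.58 ± 0.669, adjusted p = 0.000196). Both calls ended on centring (-2.63 and -0.693 points), and on scaling Spi1 was at -2.22 and Mrc1 at 0.182. Csf1r (-4.73 ± 1.04), Ptprc (-4.47 ± 0.652) and Itgam (-3.34 ± 0.786) had an adjusted p under 0.05 and were under 5 points. On centring these 3 turned to 0.160, 0.416 and 1.55 points, and on scaling they were positive too. Csf1r was called without KO replicate 2 (-5.59) or WT replicate 2 (-5.23).

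The body of Cd3e differed between the groups by less than the spread of its samples. It was at 63.4, 64.6 and 64.5% in KO and 63.8, 62.6 and 66.5% in WT. The difference was -0.141 ± 1.11 points (limma adjusted p = 0.911), and 96.8% of gene bodies lost more. The KO samples lay inside the WT range. After scaling to one mean level its difference was 5.05 points and it was called higher, as were 880 of the 15360 bodies. After centring its difference was 4.75 points.

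Tile by tile, 92 of the 479 tiles fell (19.2%) and 2 rose (limma, 10 points or more with an adjusted p below 0.05), beside 16.2 and 0.0796% of all tiles. The KO samples were all below the WT samples in 167 tiles, as in 31.6% of all tiles. A loss of 20 points or more was called in 22 tiles (4.59%, and 4.5% of all tiles). The genes differed widely in this share: 54.2% of tiles fell for Cd79b, 48.0% for Cd79a, 39.1% for Cd68, 29.6% for Spi1 and 22.2% for Mrc1. It was 10.6% for Csf1r, 9.68% for Cd3e, 7.62% for Ptprc and 5.63% for Itgam. Tiles at 80% or more went from 106 in WT to 39 in KO and tiles under 50% from 29 to 63. How many of all tiles crossed these limits was not counted. The median tile difference was -5.04 points in the windows and -4.05 over all tiles. Inside the genes 49 of 308 tiles fell (15.9%) and in the flanks 43 of 171 (25.1%). Ptprc, Mrc1 and Itgam hold 91, 81 and 51 of the inner tiles, so the pooled shares weigh genes unequally. Inner shares were larger for Cd79a (4 of 5, flanks 8 of 20) and Cd68 (2 of 3, flanks 7 of 20). They were slightly larger for Csf1r and Itgam, larger for Ptprc (8 of 91, flanks 0 of 14) and equal for Mrc1. They were smaller for Spi1 (8 of 34, flanks 8 of 20), Cd79b (2 of 4, flanks 11 of 20) and Cd3e.

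**Figure D3:**
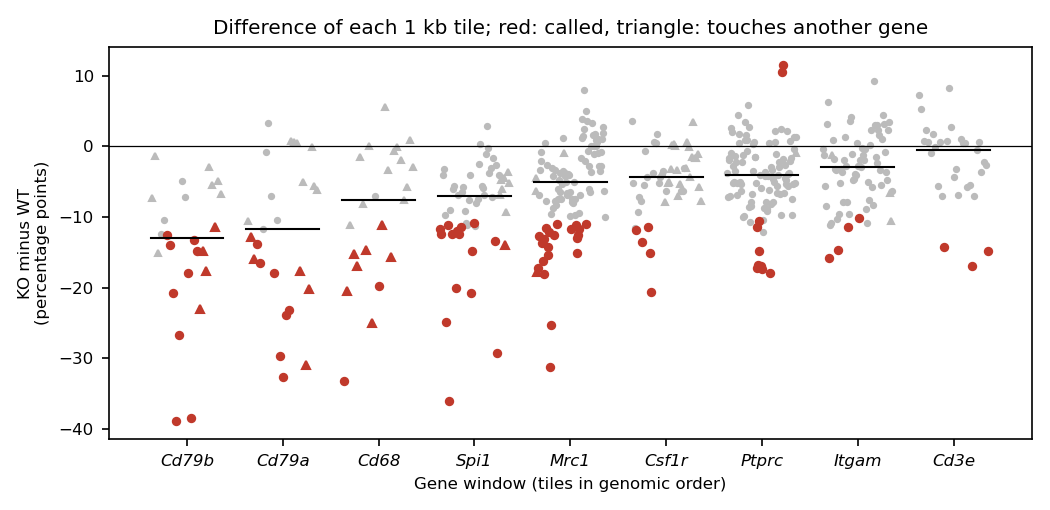
KO minus WT (percentage points, y axis) of each 1 kb tile in the 9 gene windows, in genomic order within a window; red marks called tiles, triangles tiles that touch another gene, and black bars the median. Medians run from -12.9 points at Cd79b to -0.557 at Cd3e, and the 2 tiles called higher are in Ptprc.

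Tiles that were partly methylated in WT were called most often. Of the 21 tiles at 10 to 50% in WT, 12 fell, beside 26.8% of all tiles at that level. The counts were 56 of 344 at 50 to 80% (all tiles 13.7%) and 24 of 106 at 80% or more (20.7%). The WT samples define these classes and also enter the difference. Below 10% in WT were 8 tiles, which cannot lose the 10 points that a call needs, and 7 of them touch a neighbouring gene, Eif4a1 or Mpdu1 beside Cd68 and Arhgef1 beside Cd79a. The exception is the last tile of the Spi1 span (91115001 to 91116000), at 4.93% in KO and 7.55% in WT.

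**Figure D4:**
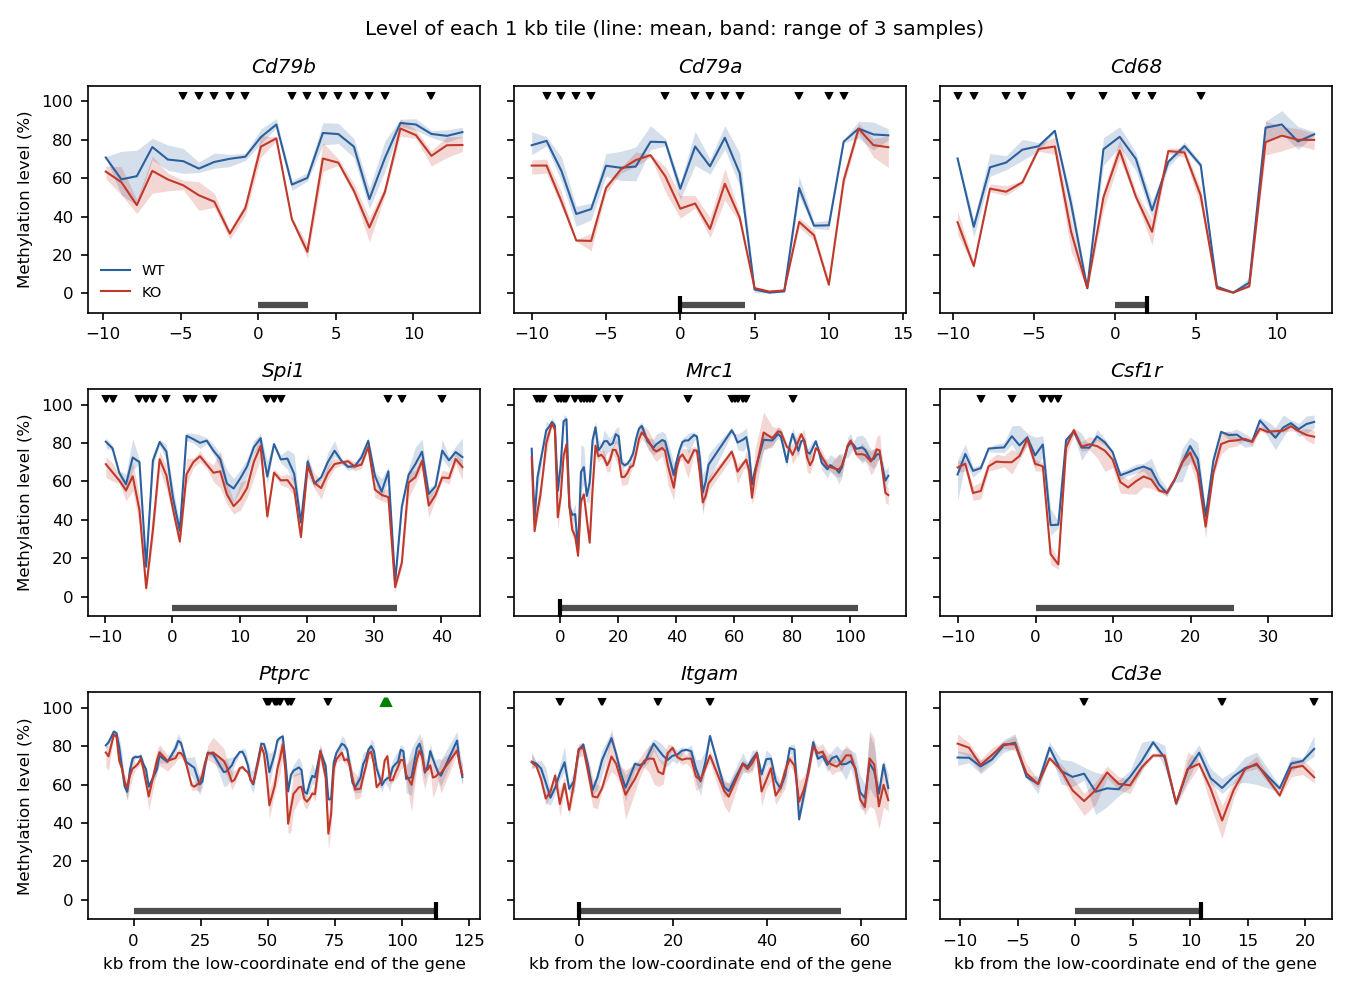
Methylation level (%) of each 1 kb tile along the 9 windows against the distance (kb) from the low-coordinate end of the gene; lines are means of 3 samples, bands their range, the grey bar the gene and the tick its start where the strand is known. Black triangles on top mark the 92 tiles called lower and green triangles the 2 called higher; at Cd79b, Cd79a and Cd68 they mark 54.2, 48.0 and 39.1% of the tiles and at Ptprc and Csf1r they are grouped.

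The losses at the B cell genes formed stretches. In the Cd79b window a stretch of 5 called tiles beside the gene (106306001 to 106311000) was at 49.2, 42.2 and 47.1% in KO and 66.8, 68.1 and 71.2% in WT. A stretch of 7 tiles (106313001 to 106320000), with 2 in the gene and others reaching the sodium channel gene Scn4a, was at 47.5, 48.2 and 49.7% in KO and 69.9, 68.3 and 67.3% in WT. Both were separated by more than 17 points. As in every stretch given here, only called tiles were joined, so part of this gap is set by that choice. Between the 2 stretches lay 2 tiles of the gene that were not called. The largest single change of all windows, -38.9 points (31.2% ± 2.63 against 70.1% ± 3.53), was at 106309001 to 106310000.

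In Cd79a 4 neighbouring tiles inside the gene (24898001 to 24902000) fell from 71.6% ± 3.17 to 44.2% ± 3.26, with KO at 43.6, 47.8 and 41.3% and WT at 75.1, 70.6 and 68.98%. The tile with the largest change in this window, 24899001 to 24900000, was at 33.6% ± 5.33 in KO and 66.2% ± 3.90 in WT. Next to the gene the 3 unmethylated tiles at Arhgef1 were at 2.80% or less in both groups. Beyond them a tile of Arhgef1 (24907001 to 24908000) was at 4.55% in KO and 35.5% in WT.

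Spi1 showed separate dips. A stretch of 3 tiles below the gene span (91077001 to 91080000) was at 24.8, 26.4 and 33.3% in KO and 51.9, 53.4 and 51.2% in WT. Its middle tile was already low, at 4.41% in KO and 15.6% in WT, and the tile beside it had the largest change of the window (34.9% ± 8.94 against 70.9% ± 3.36). Another 3 called tiles lay inside the gene (91096001 to 91099000), at 55.6% ± 1.58 in KO and 71.1% ± 2.57 in WT. Past the other end the tile from 91116001 to 91117000 was at 17.7 and 46.9%. By contrast, the partly methylated tile from 91083001 to 91084000 was at 28.7% in KO against 34.3% in WT and was not called.

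Among the myeloid surface genes, Csf1r had called tiles in one stretch inside the gene. The 3 called tiles inside it were adjacent (61106001 to 61109000) and lay at 33.6, 36.8 and 36.4% in KO and 54.98, 51.6 and 47.4% in WT. The largest change of that window was at 61108001 to 61109000, 15.9, 14.2 and 20.2% in KO and 37.4, 39.1 and 35.8% in WT (limma adjusted p = 1.16e-05). The other 24 tiles that touch the gene were not called. A second low tile of Csf1r (61127001 to 61128000) was at 36.4 and 41.7% and was not called.

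In Mrc1 14 of the 30 tiles within 20 kb of the start fell and 8 of the 69 farther away. A stretch of 4 tiles over the start (14228001 to 14232000) was at 61.5% ± 1.15 in KO and 76.8% ± 3.95 in WT. A stretch of 5 tiles in the gene (14236001 to 14241000) was at 43.4, 46.5 and 46.4% in KO and 62.5, 67.3 and 65.6% in WT. It holds the tile with the largest change, at 28.1% ± 0.483 in KO and 59.3% ± 9.20 in WT. Between the 2 stretches lay the lowest tile of the window (14235001 to 14236000), at 21.3 and 23.9% and not called.

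The Cd68 gene itself is covered by 3 tiles, and 2 of them were called. They were at 43.5, 41.01 and 39.2% in KO and 58.1, 60.4 and 51.5% in WT. The call of the tile at the start rests on narrow margins: it was lost without a variance trend, on the logit scale, on centring (-6.27) and scaling (-8.12), and without KO replicate 2 or 3 or WT replicate 1 or 2 (-7.70 to -11.5 points). The largest change of this window was at 69654001 to 69655000, which touches no other gene, at 37.1% ± 6.12 in KO and 70.2% ± 1.18 in WT.

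In Itgam 4 of 71 tiles fell and no 2 of them were adjacent. The largest change was ahead of the gene (128058001 to 128059000), at 43.5, 57.2 and 49.1% in KO and 70.6, 64.4 and 62.4% in WT. That call was lost without KO replicate 1 (-12.6 points) or WT replicate 1 (-13.4). In Cd3e 3 of 31 tiles fell, 1 in the gene and 2 ahead of its start. The largest change, at 45011001 to 45012000, was from 63.3, 56.1 and 55.4% in WT to 49.1, 43.0 and 32.0% in KO. It was lost without KO replicate 3 (-12.2) or WT replicate 1 (-14.4), and for both genes also on centring and scaling. In the Cd3e window 14 of 31 tiles had a higher mean in KO.

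The tiles called lower in Ptprc lay in the middle of the gene. Its start also had a lower mean in KO (-5.18 ± 2.93 points, limma adjusted p = 0.174) and was not called. The 8 tiles that fell lay between 138112001 and 138136000, 49.6 to 72.6 kb from the end of the span opposite to the start, and 0 of the 23 tiles within 20 kb of the start fell. The largest change was at 138135001 to 138136000, at 32.6, 26.3 and 44.5% in KO and 51.4, 53.3 and 52.5% in WT. This call was lost without KO replicate 2 (-13.9 points, adjusted p = 0.0528) and on centring (-13.0). Nearer to the start, 2 adjacent tiles rose, the only ones in the 9 windows with a call. Over both (138156001 to 138158000) KO was at 74.2, 71.8 and 75.04% and WT at 64.4, 63.6 and 60.1%, a gain of 11.01 points. Their adjusted p values in limma were 0.0453 and 0.0318. Without KO replicate 1 or 3 or WT replicate 1 or 3 neither was called, and without KO replicate 2 or WT replicate 2, a single tile over all 9 windows was called higher.

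The list of other leukocyte genes holds 89 symbols. Of 64 measured starts 16 fell (25.0%, beside 17.4% of all genes) and none was called higher by limma (0 at an unadjusted p under 0.05). The median difference was -5.29 points against -4.54 over all starts. Of 72 bodies 43 fell (59.7%, beside 53.3%), with a median of -5.35 against -5.37. On centring 7 starts and 13 bodies were called lower, beside 7.08% of all starts and 18.8% of all bodies. On scaling 7 starts and 11 bodies were, beside 10.03 and 17.2%. In WT 38 of the 64 starts were at 60% or more and 7 were under 20%.

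Among genes shared by most leukocytes, 7 of 16 starts fell (43.75%, beside 17.4% of all starts), as did 13 of 18 bodies (72.2%, beside 53.3%). The start of Cd37, a tetraspanin gene, was at 19.7% ± 0.650 in KO against 49.3% ± 2.81 in WT, and its body at 17.3 and 53.4%. The starts of Ptpn6, which encodes the phosphatase SHP-1, and Laptm5, a lysosomal membrane protein gene, were at 46.4 against 70.7% and 57.7 against 72.9%. The bodies of Lcp1 and Fermt3 changed by -9.01 and -8.39 points. The starts of Cd48 (66.8 and 68.5%) and Ikzf1 (37.6 and 39.7%), the gene of the lymphoid factor Ikaros, differed least.

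Among other myeloid genes 4 of 21 starts fell (19.0%, beside 17.4% of all starts), as did 10 of 18 bodies (55.6%, beside 53.3%). The start of Irf8, a transcription factor gene of monocytes and dendritic cells, was at 16.8 against 34.0%, that of Ncf1, a subunit of the phagocyte oxidase, at 57.3 against 77.5%, and that of Aif1 at 54.5 against 71.2%. Bodies that fell included Irf8 (52.9 and 72.7%) and Ncf1 (37.6 and 63.7%). The start of the myeloid factor gene Cebpa was unmethylated in both groups, at 0.959 and 1.22%, and that of the complement gene C1qc was at 42.2 and 44.0%.

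Of other B cell genes 0 of 10 starts fell, beside 17.4% of all starts, and 4 of 13 bodies (30.8%, beside 53.3% of all bodies). In limma 0 of the 10 starts were higher at an unadjusted p under 0.05, and Cd79a and Cd79b are not on that list. The body of Ebf1, a factor of early B cells, was at 58.6 against 71.0%, while its start was at 0.679 and 2.09%. The body of Blk changed by -5.20 points, and the start of Cd22 was at 61.6 and 63.3%. Of other T and natural killer cell genes 5 of 17 starts fell (29.4%, beside 17.4%), as did 16 of 23 bodies (69.6%, beside 53.3%). The start of the T cell factor gene Gata3 was at 3.67 against 17.9% and its body at 23.5 against 51.7%. The kinase gene Zap70 was at 51.05 against 70.97% at its start and 59.1 against 74.4% over its body. Cd247, which encodes the zeta chain of the T cell receptor, was at 19.7 against 30.02% and 56.2 against 70.9%. The starts of Ncr1 (61.3 and 60.9%) and Eomes (0.974 and 1.41%) differed least.

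Of the 11 endothelial starts 2 fell (18.2%, beside 17.4% of all starts). They were those of the VEGF receptor genes Flt1 (-22.8 points from 25.3%) and Kdr (-17.4 points from 24.8%). Of 23 endothelial bodies 18 fell (78.3%, beside 53.3% of all bodies). Of other lineages that a sort from lung could hold, 6 of 13 epithelial, 6 of 11 mesenchymal and 2 of 9 erythroid starts fell. These shares were 46.2, 54.5 and 22.2%, beside the same 17.4% of all starts. Their median WT levels were 45.3, 36.9 and 54.0%. No member of these lists was called higher at a start or over a body.

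For the 4 members with both a start and a body value, the most similar gene was sought over these 12 values in the 6 samples, among 12157 genes. It was Slc22a14 for Ptprc (root mean square distance 1.85 points, closely followed by the Fc receptor gene Fcgr2b at 1.97), Gm6729 for Itgam (2.14), Piwil1 for Cd3e (2.41) and Fam47e for Mrc1 (2.66). Fam47e, for example, had a start at 57.9% in KO and 68.6% in WT.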

How the data were processed

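Tagmentation-based whole-genome bisulfite libraries were made from 30 ng of DNA, 3 per sample, each sequenced from both ends over 100 bases (labels' protocols). The submitters' processing notes name BWA 0.7.8 and mm10. The authors deposited a methylation fraction (0 to 1) for each sample in 1 kb tiles, per the file headers, with 0 missing values. The caller, any smoothing, the coverage filter and the choice of tiles are not stated in the labels used.

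Fractions were turned to percent. Tiles, windows, starts, ends and bodies (at least 3 tiles for windows and bodies) were fitted over all features of a kind with limma 3.58.1 (R 4.3.3), KO against WT, with a variance trend and Benjamini-Hochberg adjustment. Calls needed an adjusted p under 0.05 and 10 points for tiles, starts and ends, or 5 for windows and bodies. A logistic model on read counts was not run because the table holds levels only. The fit was tested on simulated data. Strand came from the RefSeq promoter table. Of other lists, up to 3 called genes with the smallest p and up to 2 starts with the smallest difference are named, and some of these are not reported here. Members and lists were chosen with earlier results of these data known. Python 3.11.15 did the rest.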

Additional observations from a re-analysis of the deposited data

How the results depend on the processing

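Of the 479 tiles, 83 were called lower without a variance trend, 79 on the logit scale and 94 with the replicate block, and 2, 2 and 1 higher. The counts of windows, starts and bodies called lower were 5, 2 and 2 under each of these settings. With the block the Cd3e window had an adjusted p of 0.0569 in limma. Whether the replicate numbers pair the samples is not stated in the labels used. Same-numbered KO and WT samples had deviations that correlated at 0.00563, -0.00321 and 0.0110 over tiles, which are not independent replicates. Differently numbered samples had correlations from -0.0104 to 0.00449. Values this small cannot decide whether the samples were paired. Leaving out each sample in turn gave 65 to 77 tiles lower, 0 to 1 higher, 5 to 6 windows, 2 starts and 2 to 3 bodies lower. A limit of 20 points left 22 tiles lower and 0 higher.

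Centring and scaling remove the fall of the whole genome. They left 27 and 31 tiles lower (6.64 and 6.58% of all tiles) and 5 and 10 higher (18197 and 30656 of all tiles). Of windows 2 and 3 were called lower (17.1 and 17.0% of all), and of starts 2 under each (7.08 and 10.03% of all). Under either, 0 bodies were called lower (18.8 and 17.2% of all). On scaling 1 body was called higher, as were 880 of all 15360 bodies. The mean over the windows went to -2.31 and -1.99 points. For the other leukocyte genes centring and scaling left 7 and 7 starts and 13 and 11 bodies lower. They also left 1 body higher under each, beside 306 and 880 of all 15360 bodies. Signs turned on centring for windows (Ptprc 0.709, Cd3e 2.68, Itgam 1.69, Csf1r 0.232), starts (Cd3e 1.32, Itgam 4.19), the higher-coordinate end of Csf1r (3.04) and bodies (Ptprc 0.416, Cd3e 4.75, Itgam 1.55, Csf1r 0.160). On scaling they turned for windows (1.39, 3.23, 2.25 and 1.16 in the same order), starts (Ptprc 0.263, Cd3e 1.88, Itgam 5.22), ends of Csf1r (0.631 and 4.83), bodies (Ptprc 1.06, Cd3e 5.05, Mrc1 0.182, Itgam 2.22, Csf1r 0.545) and the tiles at the starts of Ptprc (0.0236) and Cd3e (0.151). Of these, the Cd3e body was called, on scaling, and no other value under either setting.

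Leaving out 1 sample turned the sign of 3 values that were not called. The Itgam start ranged from -2.45 to 1.61 points (positive without KO replicate 1 or WT replicate 3), its start tile from -1.15 to 2.92 (negative without KO replicate 3 or WT replicate 2), and the Cd3e body from -0.986 to 0.950 (positive without KO replicate 1 or WT replicate 3). Another coverage minimum was not run, as no coverage is given. Depth is unknown, so counting error could not be separated from the spread between samples.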
